A study of Mus musculus with 6 samples.

Results

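The ribosome biogenesis and nucleolar genes described here are 40 mouse genes that encode factors of rRNA transcription, cleavage, modification and ribosomal subunit assembly. They were chosen by name, as were the other gene lists below, with earlier results of these data known. Of the 40 genes, 39 were measured, out of 18193 genes on the arrays. Each was represented by the probe set, among those annotated to that gene alone, that had the highest mean signal over the 6 arrays. The remaining gene, Mrto4, whose product acts in assembly of the large subunit stalk, had 1 probe set, shared in the annotation with other loci, and is given no value.

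The study profiled haematopoietic stem cells from the bone marrow of mice with 6 Affymetrix arrays, and each of the 3 groups had 2. The cells had been sorted as GFP+, Lin-, c-Kit+ and Sca-1+ (surface markers that enrich for stem and progenitor cells). The groups were cells transduced with BCR/ABL from mice given imatinib, cells transduced with BCR/ABL from untreated mice, and cells transduced with the empty GFP vector. All 3 groups thus carried a GFP vector, and BCR/ABL came from a transduced vector rather than from the endogenous locus. Imatinib is an inhibitor of the BCR/ABL kinase, the fusion protein that drives chronic myeloid leukaemia. The labels used here state no strain, age, imatinib dose or length of treatment, nor whether arrays of 1 group hold cells of different mice. The p-values thus rest on the spread between the arrays of a group only, and that spread may be technical.

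Ribosomes are built in the nucleolus, where RNA polymerase I makes a long precursor that is cut and modified into the mature rRNAs. Small nucleolar RNPs guide methylation and pseudouridylation of that precursor, the small-subunit processome cleaves out the rRNA of the small subunit, and separate sets of factors assemble and export each subunit. Synthesis of these factors is closely tied to growth signalling and to the transcription factor MYC, and demand for ribosomes is high in proliferating blood progenitors.

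The stem and progenitor gene Kit, which encodes the receptor used in the sort, was measured at deposited intensities of 2659 and 2602 with imatinib, 1332 and 1116 in untreated BCR/ABL cells and 1637 and 2125 in vector cells. Markers of mature lineages differed between groups. The 10 mast cell and basophil markers summed to intensities of 66046 and 56183 with imatinib, 43029 and 42512 in BCR/ABL cells and 16604 and 11339.5 in vector cells, and none lay under an intensity of 16 on all arrays. The 12 measured B cell markers, of 13 listed, summed to 4024 and 6493 with imatinib, 3400.3 and 4470.2 in BCR/ABL cells and 36160.0 and 14436 in vector cells, with Pax5 under 16 on all arrays. Of these 12, 10 were lower with imatinib than in BCR/ABL cells, against 51% of all genes. Their median log2 difference was -0.97, while Il7r (2.05) and Dntt (0.22) were higher with imatinib. In limma, 1 of the 12 was lower at an unadjusted p under 0.05 and 1 higher, against 9.13% and 7.88% of all genes. On the imatinib arrays 5 and 3 of the 12 lay under an intensity of 16, and on the BCR/ABL arrays 2 and 1. The 2 vector arrays differed from each other in these lists, and correlated at 0.971 over all probe sets, against 0.985 for the imatinib pair and 0.990 for the BCR/ABL pair.

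The first comparison asked how the expression of these genes differed when the BCR/ABL cells came from mice given imatinib. All 39 measured genes were lower with imatinib than in untreated BCR/ABL cells, with a median log2 difference of -0.53, where the median of all 18193 genes was -0.01 and 51.0% of them were below 0. The difference ran from -1.77 for Bysl to -0.15 for Npm1. In 38 of the 39 genes both imatinib arrays lay below both BCR/ABL arrays on the normalised log2 scale, against 26.7% of all genes (percentage called over the 18193 genes). Pes1, the exception, is described below. In limma, 33 of the 39 were lower at an unadjusted p under 0.05 and 0 higher, against 9.13% of all genes lower and 7.88% higher. None passed the adjusted threshold of 0.05, and 0% of all genes did. The adjusted p of the members ran from 0.0815 to 0.61. With 2 arrays against 2, an exact two-sided permutation test of a single gene cannot go below 0.333. The shares of all genes, here and below, include 4509 genes under an intensity of 16 on all arrays, whose differences are understated. No member lay under 16 on any array, and shares over brighter genes alone are not given.

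The absence of adjusted calls depended on which probe sets were tested and how arrays were scaled. When probe sets under the 50th percentile of signal were left out, 8 members were called lower at an adjusted p under 0.05 (Fbl, Nop56, Rrp9, Nhp2, Lyar, Wdr75, Bysl and Bop1), against 0.796% of the genes tested, and with the 30th percentile 5 were (Nop56, Nhp2, Lyar, Bysl and Bop1), against 0.469%. Scaling by array medians in place of quantiles called 25 members lower, against 3.79% of genes, but there the median of all genes was itself -0.27. All 39 members were lower under each of the 3 scalings.

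**Figure D1:**
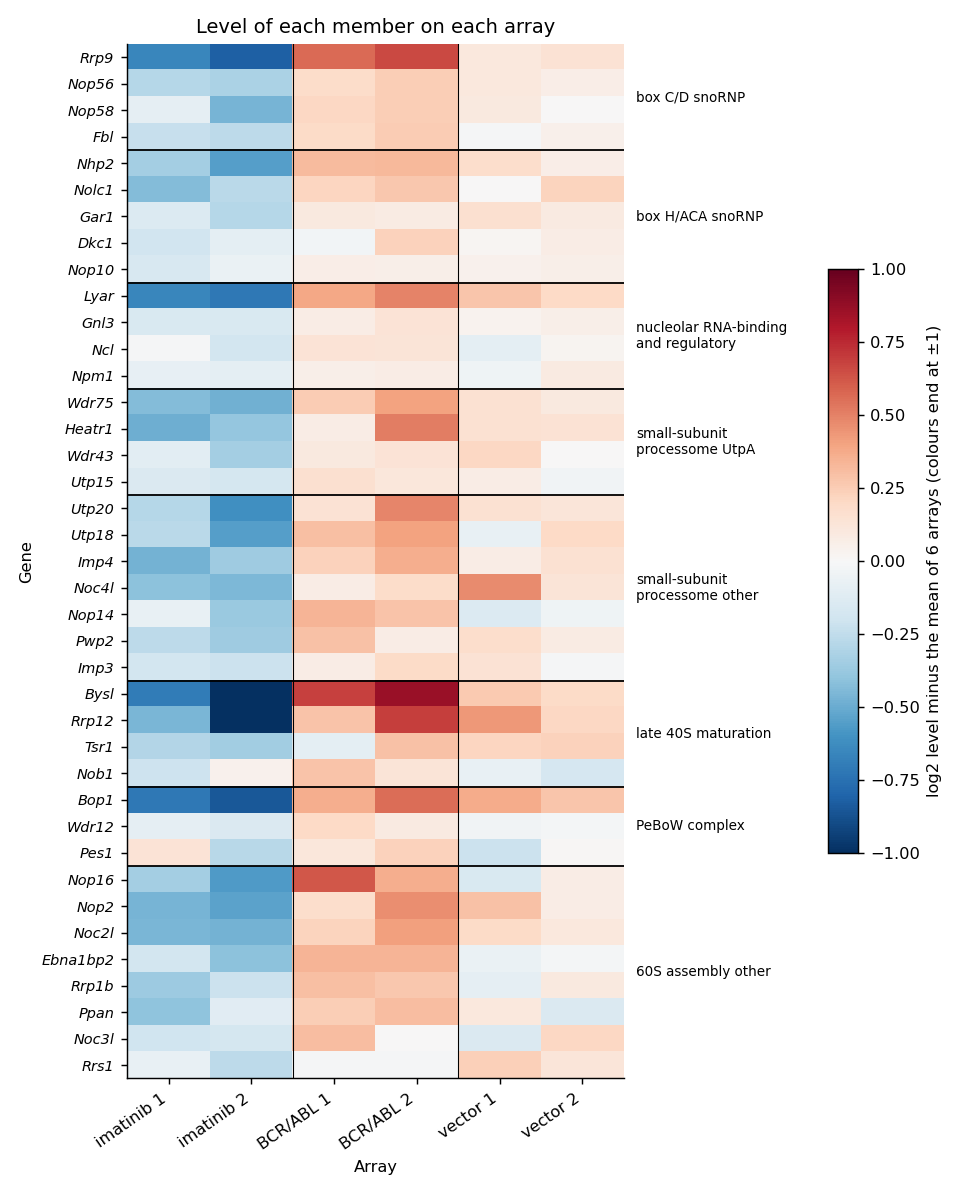
Level of the 39 measured members on each of the 6 arrays, as the normalised log2 level minus that gene's mean over the arrays, with genes grouped by role. Colours end at a value of 1 above or below the mean, and Bysl and Rrp12 on imatinib replicate 2 lie past that end. The 2 imatinib columns are blue for nearly every gene and the 2 BCR/ABL columns are red for most, with the vector columns closer to 0.

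Array by array, the median member lay at -0.27 and -0.35 with imatinib, 0.21 and 0.27 in BCR/ABL cells and 0.10 and 0.08 in vector cells, as log2 levels centred on each gene's mean. The same medians over all genes stayed between -0.02 and 0.01. Quantile normalisation gives every array the same distribution of values, so the medians over all genes could move little. Each array was scaled to a common mean signal, so the values are levels relative to the other transcripts in the sample. A smaller share of cells with active nucleoli and less of each RNA per cell cannot be told apart in such bulk samples. Other values moved with the comparison, and their part in it was not tested. For beta-actin, the signal near the 3′ end over that near the 5′ end, a measure of RNA length, was 1.74 and 1.55 with imatinib and 1.48 and 1.30 in BCR/ABL cells. It was 1.81 and 1.62 in vector cells. For Gapdh the ratio was 1.45 and 1.39 with imatinib, 1.34 and 1.28 in BCR/ABL cells and 1.56 and 1.37 in vector cells. The 11 measured stem and progenitor markers of 13 summed to 22848 and 27921 with imatinib and 20028 and 17389 in BCR/ABL cells. All 11 were higher with imatinib, by 0.05 to 1.36 in log2, where 8922 of all 18193 genes were higher. In limma, 2 of the 11 were higher at an unadjusted p under 0.05, against 7.88% of all genes. The mast cell and basophil markers, whose sums are given above, were higher with imatinib in 9 of 10 genes. Their median log2 difference from BCR/ABL cells was 0.82. Both imatinib arrays lay above both BCR/ABL arrays in 7 genes, against 24.8% of all genes, and below them in 1, against 26.7%. In limma, 2 of the 10 were higher at an unadjusted p under 0.05, against 7.88% of all genes. The 7 measured megakaryocyte markers of 9 summed to 7021 and 6737 with imatinib and 3923 and 3326 in BCR/ABL cells. Of these 7, 3 were higher at an unadjusted p under 0.05, against 7.88% of all genes. None of the markers of these 3 lists lay under an intensity of 16 on all arrays.

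**Figure D2:**
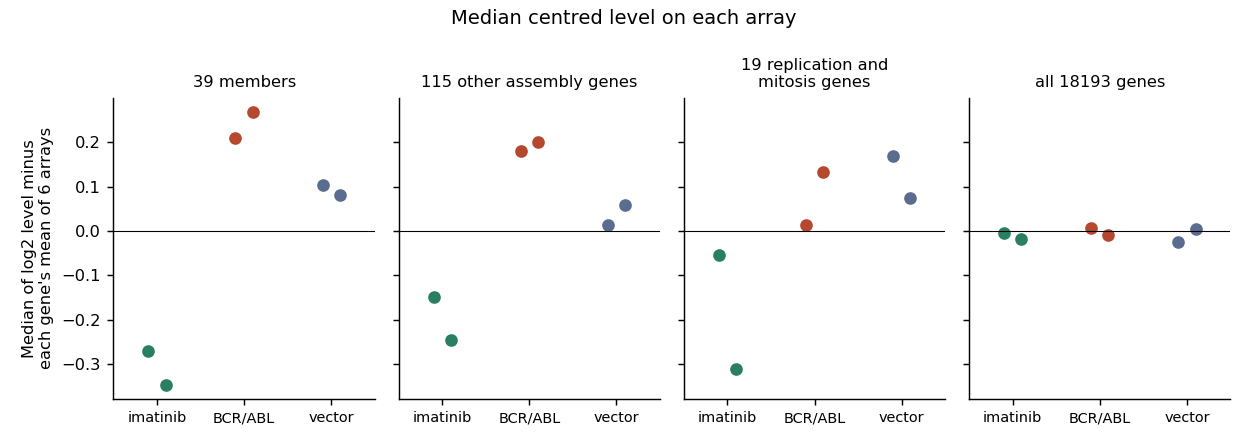
Median centred log2 level of 4 gene lists on each array, with 1 point per array. The 39 members and 115 other ribosome assembly genes are lowest on the imatinib arrays and highest on the BCR/ABL arrays. The medians of all genes stay between -0.02 and 0.01, which quantile normalisation largely sets. The 19 replication and mitosis genes lie at -0.05 and -0.31 with imatinib, 0.01 and 0.13 with BCR/ABL and 0.17 and 0.07 with vector.

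Promoter sequences are shown for Lyar, the member with the smallest p, and for the 4 members of smallest p whose window holds the E-box CACGTG, a motif bound by MYC and related factors. Windows of 250 bases before to 50 bases after the annotated start were available from RefSeq (build GRCm38.p6) for 34 of the 39 genes, and not for Bop1, Fbl, Npm1, Rrp12 and Rrs1. Sequences run 5′ to 3′ along the gene's strand, and capitals mark CACGTG, which reads the same on both strands. The windows are chr5:38220232-38220531 on the plus strand for Lyar, chr1:34439579-34439878 on the plus strand for Imp4, chr6:125131633-125131932 on the plus strand for Nop2, chr11:93885717-93886016 on the minus strand for Utp18 and chr10:88826765-88827064 on the minus strand for Utp20.
Lyar: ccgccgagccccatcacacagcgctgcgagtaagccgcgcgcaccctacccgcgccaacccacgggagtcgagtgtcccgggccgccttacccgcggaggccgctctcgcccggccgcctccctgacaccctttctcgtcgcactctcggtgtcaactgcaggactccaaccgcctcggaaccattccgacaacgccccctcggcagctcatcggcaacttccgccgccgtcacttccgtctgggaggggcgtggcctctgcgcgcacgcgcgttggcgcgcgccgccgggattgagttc
Imp4: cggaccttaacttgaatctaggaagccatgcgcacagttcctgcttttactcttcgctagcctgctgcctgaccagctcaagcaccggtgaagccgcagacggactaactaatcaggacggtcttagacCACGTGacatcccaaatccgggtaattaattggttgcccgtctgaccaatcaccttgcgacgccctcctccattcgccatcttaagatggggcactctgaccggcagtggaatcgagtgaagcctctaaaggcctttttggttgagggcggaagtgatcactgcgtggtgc
Nop2: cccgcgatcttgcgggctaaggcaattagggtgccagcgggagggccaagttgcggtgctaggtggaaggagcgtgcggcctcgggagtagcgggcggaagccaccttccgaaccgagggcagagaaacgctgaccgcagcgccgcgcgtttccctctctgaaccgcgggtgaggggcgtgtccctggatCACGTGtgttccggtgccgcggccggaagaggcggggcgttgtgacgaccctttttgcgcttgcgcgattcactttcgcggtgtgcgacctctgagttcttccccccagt
Utp18: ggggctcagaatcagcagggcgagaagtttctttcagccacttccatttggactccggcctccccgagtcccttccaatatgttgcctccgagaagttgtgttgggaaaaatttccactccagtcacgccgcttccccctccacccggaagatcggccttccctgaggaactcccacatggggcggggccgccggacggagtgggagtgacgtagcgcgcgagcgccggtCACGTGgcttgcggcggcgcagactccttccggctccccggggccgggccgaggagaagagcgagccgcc
Utp20: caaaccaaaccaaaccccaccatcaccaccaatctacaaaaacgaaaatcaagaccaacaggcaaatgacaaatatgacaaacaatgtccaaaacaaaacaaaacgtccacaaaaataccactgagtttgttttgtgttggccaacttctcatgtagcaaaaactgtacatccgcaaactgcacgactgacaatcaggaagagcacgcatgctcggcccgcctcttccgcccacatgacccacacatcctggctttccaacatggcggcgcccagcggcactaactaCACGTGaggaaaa
The motif was found in 7 of the 34 genes (20.6%), against 10.2% of the 14452 genes on the arrays that have a window. It was found in 19 of 96 other ribosome assembly genes (19.8%). The median GC content was 58.8% for the members' windows and 58.3% for those of genes on the arrays. The 7 members with it were Imp4, Nop2, Utp18, Utp20, Wdr43, Tsr1 and Pes1, and it began 121 bases before the start in Imp4, 60 before in Nop2 and 20 before in Utp18, and 38 bases after it in Utp20. Their imatinib differences had a median of -0.71 and ran from -0.82 to -0.24, against a median of -0.53 and a range of -1.77 to -0.18 for the 27 members without it. Lyar, Bysl and Rrp9, which differed most among the genes with a window, had no CACGTG in it.

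The box C/D particle, which methylates rRNA, was lower with imatinib in each of its 4 genes. Fbl encodes fibrillarin, the methyltransferase, and had deposited intensities of 3872 and 3690.1 with imatinib, 5216 and 5536 in untreated BCR/ABL cells and 4516 and 4834 in vector cells. Its log2 difference for imatinib was -0.47 (SE 0.075, adjusted p = 0.114). Nop56 and Nop58 encode the scaffold proteins on which fibrillarin sits. Nop56 measured 4289 and 4132 with imatinib, 5998 and 6356 in untreated BCR/ABL cells and 5779 and 5687 in vector cells, a log2 difference of -0.51 (SE 0.069, adjusted p = 0.108), and Nop58 differed by -0.51. The imatinib arrays lay below all others for both Fbl and Nop56. Rrp9, a protein of the U3 particle that directs the early cleavages of the precursor, stood apart from the other 3 in size. It measured 288 and 280.2 with imatinib, 673 and 728 in untreated BCR/ABL cells and 495 and 492 in vector cells, a 2.54-fold lower level with imatinib (log2 difference -1.35, SE 0.19, adjusted p = 0.108). The 3 groups did not overlap for Rrp9, with vector between the other groups.

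The box H/ACA particle converts uridines of rRNA to pseudouridine. Its catalytic subunit dyskerin, encoded by Dkc1, had intensities of 4739 and 4968 with imatinib, 5404 and 6484 in untreated BCR/ABL cells and 5643 and 5924 in vector cells, and the untreated BCR/ABL arrays lay further from each other than the nearer one lay from the imatinib arrays (log2 difference -0.24, adjusted p = 0.353). Nop10, a small protein bound to dyskerin, measured 7092 and 7602 with imatinib, 8196 and 8507 in untreated BCR/ABL cells and 8535 and 8672 in vector cells, with a log2 difference of -0.18 (adjusted p = 0.274). Against vector, BCR/ABL was lower on both arrays in these deposited values but higher on the normalised log2 scale, so that no direction is given for it. Gar1, which binds near the catalytic site, differed by -0.30. Nhp2, the partner of Nop10 that binds the guide RNA, differed more: it measured 3105 and 2605 with imatinib, 4870.0 and 4992 in untreated BCR/ABL cells and 4419 and 4184 in vector cells, and its log2 difference was -0.77 (SE 0.1, adjusted p = 0.108). A second Nhp2 probe set gave -1.09. Nolc1 encodes a nucleolar phosphoprotein that chaperones both kinds of particle, and measured 2683 and 2929 with imatinib, 4255 and 4442 in untreated BCR/ABL cells and 3636 and 4339.9 in vector cells (log2 difference -0.60, SE 0.11, adjusted p = 0.121). For all 5 genes both imatinib arrays lay below both BCR/ABL arrays, by 1.13-fold for Nop10 to 1.70-fold for Nhp2.

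Among the 4 nucleolar RNA-binding and regulatory genes, Lyar differed far more than the other 3. Lyar, a zinc-finger nucleolar protein gene, had intensities of 2112 and 1989 with imatinib, 4364 and 4747 in untreated BCR/ABL cells and 4029 and 3890.3 in vector cells. Its level with imatinib was 2.18-fold lower than in untreated BCR/ABL cells (log2 difference -1.13, SE 0.089, adjusted p = 0.0815), which was the smallest p of the 39 members. Npm1, encoding nucleophosmin, an abundant nucleolar chaperone, measured 9966 and 10508 with imatinib, 10900.4 and 11417 in untreated BCR/ABL cells and 11137 and 12029 in vector cells, with the imatinib arrays lowest and the arrays of the other groups overlapping. Its log2 difference was -0.15 (SE 0.064, adjusted p = 0.351). Ncl encodes nucleolin, which binds nascent rRNA, and measured 7667 and 6785 with imatinib, 8306 and 8684 in untreated BCR/ABL cells and 7590.5 and 8296 in vector cells. The imatinib and vector groups overlapped for Ncl, and its imatinib difference from BCR/ABL was -0.23 (adjusted p = 0.292). Gnl3 encodes nucleostemin, a GTP-binding protein of the nucleolus, and measured 4875 and 4791 with imatinib, 5785 and 6163 in untreated BCR/ABL cells and 5736 and 5902 in vector cells (log2 difference -0.26, adjusted p = 0.18).

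**Figure D3:**
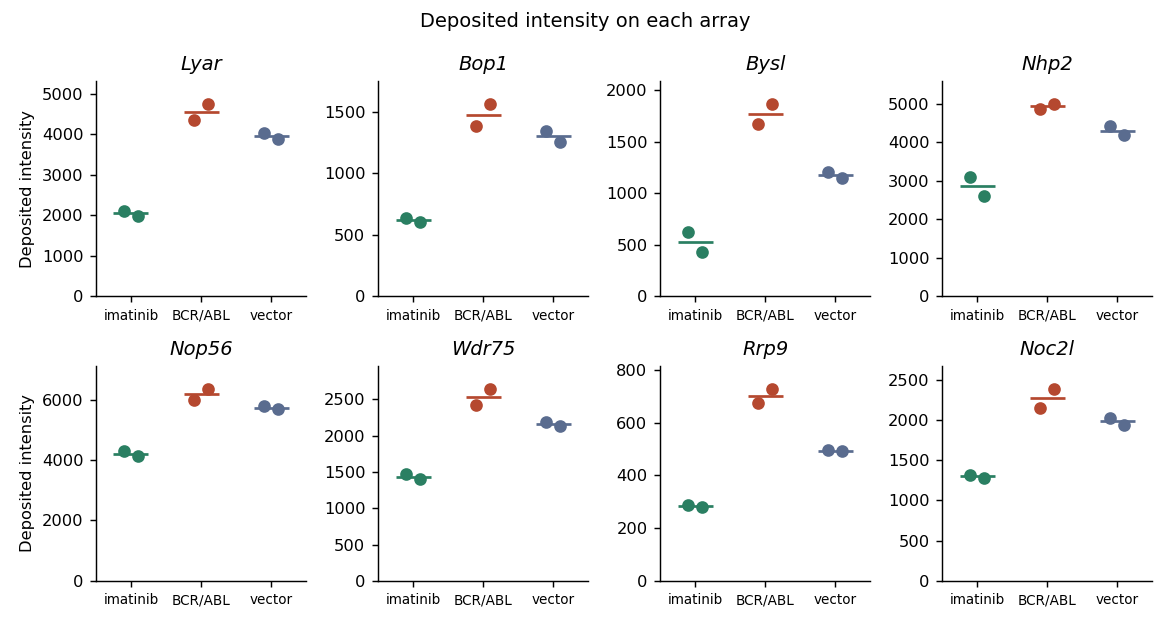
Deposited intensity of the 8 members with the smallest p for imatinib against untreated BCR/ABL, with 1 point per array and a line at the mean of 2 arrays. In each panel both imatinib points lie below both BCR/ABL points and below both vector points.

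The small-subunit processome is the large particle that forms on the 5′ part of the precursor. Here 11 of the genes are grouped under it, apart from the box C/D genes described above. All 11 were lower with imatinib at an unadjusted p under 0.05, against 9.13% of all genes. Of the UtpA complex, which binds the precursor first, Wdr75 measured 1468 and 1406 with imatinib, 2420.1 and 2647 in untreated BCR/ABL cells and 2192 and 2139.9 in vector cells (log2 difference -0.79, SE 0.11, adjusted p = 0.108). The UtpA genes Heatr1, Wdr43 and Utp15 differed by -0.73, -0.34 and -0.30. Imp4, which with Imp3 joins the U3 RNA to the precursor, measured 1495 and 1603 with imatinib, 2500.4 and 2706 in untreated BCR/ABL cells and 2169 and 2331 in vector cells. Its log2 difference was -0.71 (SE 0.11, adjusted p = 0.108), while Imp3 differed by -0.33. The UtpB genes Utp18 and Pwp2 differed by -0.76 and -0.49, and Utp20, a very large repeat protein of the particle, by -0.77.

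Nop14 and Noc4l encode proteins that are partners in yeast, and on the chosen probe sets they differed in where vector lay. Nop14 measured 1235 and 1013 with imatinib, 1687 and 1603 in untreated BCR/ABL cells and 1170.4 and 1243 in vector cells, so that BCR/ABL stood above both of the other groups (log2 difference for imatinib against BCR/ABL -0.53, adjusted p = 0.188). Noc4l measured 2787 and 2643 with imatinib, 3979 and 4262 in untreated BCR/ABL cells and 5229.7 and 4143 in vector cells, with vector replicate 1 the highest of the 6 arrays. Its log2 difference for imatinib against BCR/ABL was -0.56 (adjusted p = 0.15). The Noc4l probe set is of a kind whose probes can match unrelated transcripts. Its 3 other probe sets gave -0.82, -1.04 and -0.97. For BCR/ABL against vector these 3 gave 0.06, 0.29 and 0.20, where the chosen one gave -0.17. The position of vector for Noc4l thus depended on the probe set.

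The 4 genes of late small-subunit maturation held both the largest difference and 1 of the least certain. Bysl encodes bystin, an assembly factor that leaves the small subunit late, and measured 625 and 431 with imatinib, 1676 and 1865 in untreated BCR/ABL cells and 1203 and 1151 in vector cells. The level with imatinib was 3.4-fold lower than in untreated BCR/ABL cells (log2 difference -1.77, SE 0.22, adjusted p = 0.108), and the 3 groups did not overlap. A second Bysl probe set gave -1.17. Rrp12, a factor needed for export of subunits, differed by -1.29 (SE 0.31, adjusted p = 0.159) at intensities of 199.9 to 669.7 over the imatinib and BCR/ABL arrays. Tsr1, a GTPase-like factor, differed by -0.42. Nob1, the endonuclease that cuts the end of the small-subunit rRNA, differed by -0.29 (SE 0.18, adjusted p = 0.538), which was not distinguishable from the spread between arrays.

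PES1, BOP1 and WDR12 proteins form the PeBoW complex of large-subunit assembly, and their genes gave differences of unlike size. Bop1 measured 637 and 601 with imatinib, 1386 and 1562 in untreated BCR/ABL cells and 1342 and 1257 in vector cells, a 2.37-fold lower level with imatinib (log2 difference -1.24, SE 0.14, adjusted p = 0.108). Both imatinib arrays lay below the arrays of the other groups. Pes1 measured 1814 and 1336 with imatinib, 1813 and 1932 in untreated BCR/ABL cells and 1392 and 1643 in vector cells. It was the single member whose imatinib and BCR/ABL arrays overlapped, since imatinib replicate 1 reached the BCR/ABL level (log2 difference -0.24, SE 0.17, adjusted p = 0.61). Wdr12 differed by -0.26 (adjusted p = 0.245), and its second bright probe set by 0.03. Whether Bop1 differs from Pes1 in response was not tested.

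The other 8 measured large-subunit genes were all lower with imatinib, with a median log2 difference of -0.61. Nop16, a nucleolar assembly factor, measured 797 and 695 with imatinib, 1585 and 1308 in untreated BCR/ABL cells and 888 and 1045 in vector cells (log2 difference -0.95, SE 0.18, adjusted p = 0.121). Nop2, an rRNA cytosine methyltransferase, measured 1075 and 1030.4 with imatinib, 1720.4 and 2061 in untreated BCR/ABL cells and 1796 and 1560.2 in vector cells (log2 difference -0.82, adjusted p = 0.121). Both genes had their imatinib arrays below all others. Noc2l, whose yeast counterpart accompanies precursor particles out of the nucleolus, measured 1314 and 1285 with imatinib, 2155 and 2389 in untreated BCR/ABL cells and 2025 and 1941 in vector cells (log2 difference -0.78, SE 0.11, adjusted p = 0.108). Ebna1bp2, whose yeast counterpart acts in precursor processing, measured 2671 and 2246 with imatinib, 3902 and 3885 in untreated BCR/ABL cells and 2856 and 3014 in vector cells (log2 difference -0.63, SE 0.1, adjusted p = 0.118). Rrp1b, a nucleolar protein gene, measured 2527 and 2732 with imatinib, 4095 and 3981 in untreated BCR/ABL cells and 3019.7 and 3556 in vector cells (log2 difference -0.58, adjusted p = 0.121). For Ebna1bp2 and Rrp1b, BCR/ABL lay above both vector arrays and imatinib below both. Ppan, Noc3l and Rrs1 differed by -0.53, -0.34 and -0.16, with adjusted p of 0.22, 0.461 and 0.537. The chosen Rrs1 probe set is also of the kind that can match other transcripts, and the second gave -0.28.

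The measured members had 77 probe sets in all, so that 38 were not used above. Of these 38, 35 were lower with imatinib and 20 were lower at an unadjusted p under 0.05, where 14.6% of all probe sets passed that p in either direction. Over all genes, with 1 probe set each, 51% were below 0 and 9.13% were lower at that p. Among the 30 unused probe sets with a mean intensity of 100 or more, 28 were lower. The exceptions were a Noc2l probe set at 0.14 and a Wdr12 probe set at 0.03. The unused nucleolin probe sets spread widely, from -0.9996 to -0.06.

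The second comparison asked how BCR/ABL cells differed from vector cells. Of the 39 genes, 35 had higher levels in BCR/ABL cells on quantile-normalised values, while 32 were higher on deposited values and all 39 after scaling by array medians, where the median of all genes was 0.20. The median log2 difference was 0.17, against 0.01 for all genes, of which 47.6% were below 0. In limma, 7 were higher at an unadjusted p under 0.05 and 0 lower, against 7.16% of all genes higher and 5.55% lower. None passed after adjustment, where 0.0989% of all genes were called higher and 0.0055% lower (0.0613% of probe sets in either direction), and the smallest adjusted p among the members was 0.311. Both BCR/ABL arrays lay above both vector arrays in 23 genes and below them in 1, Rrs1, against 23.9% and 20.1% of all genes. The count of 7 rested on few arrays: it was 0 without BCR/ABL replicate 1, 2 without BCR/ABL replicate 2, 1 without vector replicate 1 and 14 with array medians.

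The 7 genes were Ebna1bp2, Nop16, Nop14, Fbl, Rrp1b, Rrp9 and Bysl. Bysl differed by 0.55 (SE 0.22, adjusted p = 0.432), Nop16 by 0.53 (SE 0.18, adjusted p = 0.366) and Rrp9 by 0.49 (SE 0.19, adjusted p = 0.419). Nop14 and Ebna1bp2 differed by 0.40 and 0.38, and Rrp1b and Fbl by 0.28 and 0.20. Lyar, next in order of p, differed by 0.20 (adjusted p = 0.463). On the chosen probe sets, Noc4l, Rrs1, Tsr1 and Gar1 were lower in BCR/ABL cells than in vector cells, with log2 differences of -0.17, -0.19, -0.12 and -0.04. The other Noc4l probe sets gave 0.06, 0.29 and 0.20, and the other Tsr1 probe set gave 0.29. The direction for these genes thus depended on the probe set. The other Rrs1 probe set gave -0.09, and Gar1 had 1 probe set. Some genes counted as higher also had a probe set that went lower: Wdr12 (-0.26), Noc2l (-0.46), Dkc1 (-0.09), Heatr1 (-0.06) and Ncl (-0.0009 and -0.08). Further probe sets of Dkc1 (0.07), Heatr1 (0.67) and Ncl (0.26 and 0.55) went higher. Utp18, Wdr75 and Ebna1bp2 had a lower probe set with a mean intensity under 100. The count of 35 thus also depended on the probe set. The mast cell and B cell marker sums given above differed between these groups too. Granulocyte, megakaryocyte and T and NK cell markers had median log2 differences of 1.24, 1.24 and -0.93. The granulocyte markers summed to 71707 and 39874 on the vector arrays. The T and NK markers had median centred log2 levels of 1.43 and -0.11 on vector replicates 1 and 2. In BCR/ABL cells these levels were -0.33 and -0.15. Of the 8 measured T and NK markers, 6 lay under an intensity of 16 on vector replicate 2, and 5 and 4 on the BCR/ABL arrays. Their median difference thus rested mainly on vector replicate 1. Stem and progenitor, monocyte, erythroid and stromal markers had medians of 0.24, 0.003, 0.02 and -0.002. The part of these marker lists in the values of the members was not tested.

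**Figure D4:**
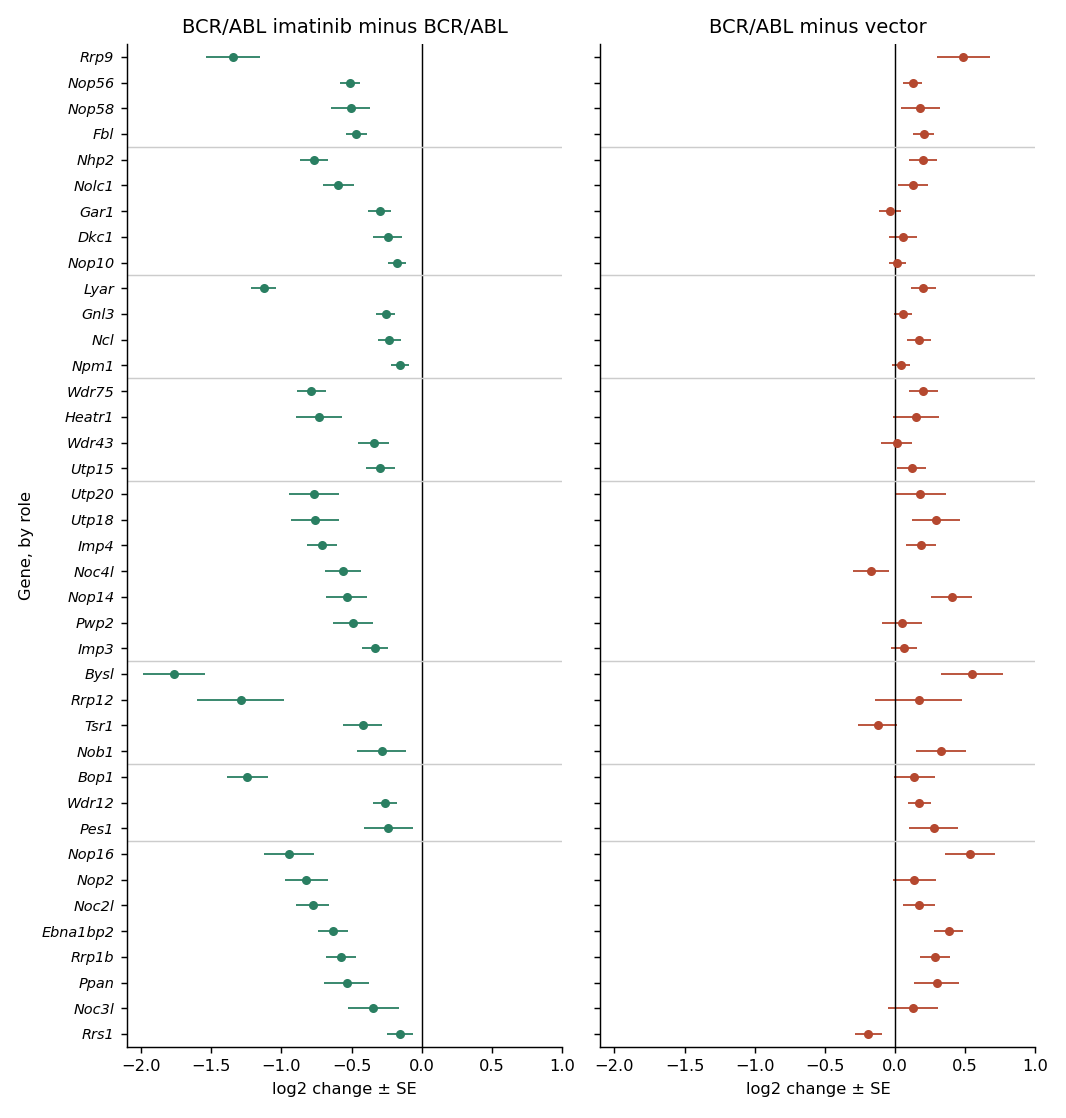
Log2 difference of each of the 39 members, with its standard error, for imatinib against untreated BCR/ABL (left) and for BCR/ABL against vector (right), with genes grouped by role as separated by grey lines. All points on the left lie below 0, from -1.77 to -0.15, and those on the right run from -0.19 to 0.55.

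The third comparison set imatinib-treated BCR/ABL cells against vector cells. Its arrays are shared with the other comparisons, so its values are not a separate line of evidence. Of the 39 genes, 37 were lower with imatinib than in vector cells, with a median log2 difference of -0.35, against -0.001 for all genes, of which 50.2% were below 0. The array medians made all 39 lower, with a median of all genes of -0.09. In limma, 26 were lower at an unadjusted p under 0.05 and 0 higher, against 7.7% of all genes lower and 9% higher. None passed after adjustment, where 0.0055% of all genes were called lower and 0.077% higher (0.0446% of probe sets in either direction). Both imatinib arrays lay below both vector arrays in 34 genes and above them in 0, against 22.3% and 21.9% of all genes, and the groups overlapped for Nop14, Ppan, Ncl, Nob1 and Pes1.

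Lyar and Bop1 had the smallest p here too. Lyar averaged 2051 ± 87.1 with imatinib and 3959.6 ± 98 in vector cells (SD of deposited intensity, n = 2 each), and its log2 difference was -0.92 (SE 0.089, adjusted p = 0.0803). Bop1 differed by -1.11 (SE 0.14, adjusted p = 0.116). Both were called lower when probe sets under the 30th or the 50th percentile of signal were left out. The next smallest p were those of Noc4l, at -0.74, Nhp2, at -0.57, Nop56, at -0.39, Bysl, at -1.22, Wdr75, at -0.58, and Noc2l, at -0.61, with adjusted p from 0.147 to 0.151. Rrp12 differed by -1.12 (adjusted p = 0.235). Nob1 and Pes1 were at 0.04 and 0.04, and Nop14 and Ncl at -0.13 and -0.06. The mast cell and B cell marker sums also differed between these groups. Granulocyte, megakaryocyte and T and NK cell markers had median log2 differences of 1.45, 1.84 and -0.85. The T and NK value again rested mainly on vector replicate 1, since the median centred levels with imatinib were -0.42 and -0.17. Stem and progenitor, monocyte, erythroid and stromal markers had medians of 0.67, -0.10, 0.01 and 0.21. The part of these marker lists was not tested.

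The other genes of the pathway were read from 6 lists of 115 genes, all measured. With imatinib against untreated BCR/ABL, 106 of the 115 were lower, with a median log2 difference of -0.38, and 59 were lower at an unadjusted p under 0.05 and 1 higher, against the 9.13% and 7.88% of all genes given above. None passed after adjustment. In the remaining small-subunit processome genes, 17 of 28 were lower at that p, among them Emg1 (-0.50, adjusted p = 0.108), an rRNA methyltransferase, and Tbl3 (-1.27, adjusted p = 0.117), a UtpB subunit. Emg1 measured 4145 and 3949 with imatinib, 5872 and 5927 in untreated BCR/ABL cells and 5187 and 5076 in vector cells, and Tbl3 676 and 769 with imatinib, 1663 and 1833 in untreated BCR/ABL cells and 923 and 1336 in vector cells. For both genes imatinib lay below and BCR/ABL above the other arrays.

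Of 15 nucleolar RNA helicases, 8 were lower at that p, with the smallest p for Ddx56 (-0.96, adjusted p = 0.121) and Ddx18 (-0.66, adjusted p = 0.139). Among 30 genes of large-subunit assembly and export, 14 were lower and 1 higher, with the smallest p for Nip7 (-0.76, adjusted p = 0.12) and for Eif6 (-0.56, adjusted p = 0.121), which keeps the subunits apart until the large one is mature. Late small-subunit maturation had 6 of 10 lower, led by Ltv1 (-0.79, adjusted p = 0.108) and Dimt1 (-0.77, adjusted p = 0.123). The exosome, which trims rRNA ends, and its partners had 10 of 17 lower, led by the exosome subunit genes Exosc7 (-0.55, adjusted p = 0.13) and Exosc8 (-0.57, adjusted p = 0.154).

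The RNA polymerase I machinery, which transcribes the precursor, had 4 of 15 genes lower at that p, against 9.13% of all genes, with a median of -0.19. Its subunit genes Polr1d (-0.41, adjusted p = 0.141) and Polr1e (-0.58, adjusted p = 0.166) had the smallest p. The Polr1d intensities were 4236 and 4418 with imatinib, 5502 and 6365 in untreated BCR/ABL cells and 5790.2 and 5791 in vector cells. Whether this list differs from the members in response was not tested.

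**Figure D5:**
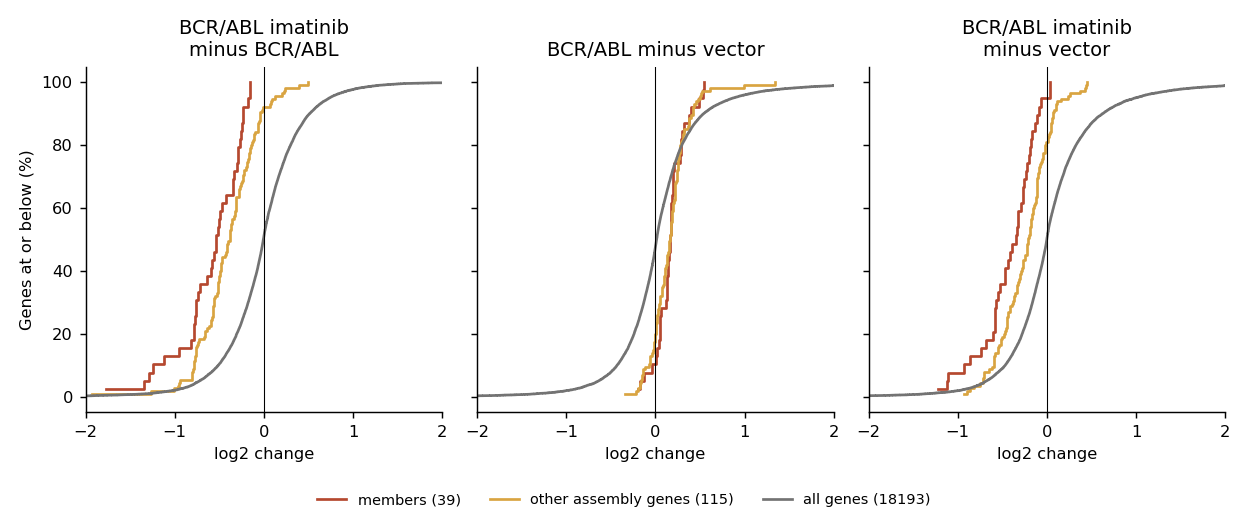
Cumulative share of genes, in percent, at or below each log2 difference in the 3 comparisons, for the 39 members, the 115 other ribosome assembly genes and all 18193 genes. Values beyond 2 in either direction lie outside the axes. The member curve lies left of the curve of all genes for imatinib against BCR/ABL and against vector.

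In BCR/ABL against vector cells, the 115 other genes had a median log2 difference of 0.16, with 14 higher at an unadjusted p under 0.05 and 0 lower, against 7.16% of all genes higher and 5.55% lower. With imatinib against vector, the median was -0.21, with 41 lower and 0 higher, against 7.7% and 9% of all genes. The 19 measured DNA replication and mitosis genes of 20 listed had a median of -0.20 for imatinib against untreated BCR/ABL, with 8 lower at that p and 0 higher, against 9.13% and 7.88% of all genes. Their summed intensities were 75162 and 64314 with imatinib, 76195 and 82988 in BCR/ABL cells and 88235 and 85235 in vector cells. Imatinib replicate 1 lay close to BCR/ABL replicate 1, and the vector arrays had the highest sums. The median was -0.08 for BCR/ABL against vector. For imatinib against vector it was -0.29, with all 19 lower, against 50.2% of all genes. The part of proliferation in the values of the members was not tested.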

How the data were processed

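Per the submitters' processing notes, the authors' deposited intensity values, 1 per probe set on a linear scale, came from Affymetrix Expression Console and MAS5 (versions not stated). The design text names a whole-transcript array, but the probe set identifiers are those of the Mouse Genome 430 2.0 platform, whose annotation gave the gene names. Each array had a mean of 500.0 after removal of 2% of values at each end. Detection calls were not used here. The number of arrays limits precision.

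The table held 45101 probe sets. After removal of 64 controls, values were transformed as log2(value + 16) and quantile normalized, and the 35877 probe sets with a symbol entered limma 3.58.1 under R 4.3.3 (lmFit, eBayes with trend=TRUE, 1 model over 6 arrays, two-sided). The added constant understates differences of dim genes. Benjamini-Hochberg adjustment ran over all tested probe sets of a comparison. Differences are on the log2(value + 16) scale, and per-array values are deposited intensities. The script was tested on simulated data. Alternatives covered normalization, added constant, signal filter, variance prior, replicate block, choice of probe set and each array left out.

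The members and lists were chosen with earlier results of these data known. Values on each array are given for the 15 members of smallest p for imatinib against BCR/ABL, the 8 of smallest p in each other comparison and the 5 of highest mean signal. Pes1 and the range of Rrp12 were added after their values were seen. Of each pathway list, the 2 genes of smallest p are named. Marker lists of T and NK cells, granulocytes, monocytes, erythroid cells, megakaryocytes and stroma were also measured, and gave median imatinib differences from BCR/ABL of 0.04, 0.09, -0.19, 0.09, 0.80 and 0.03. Motif search and figures used Python 3.11.15, pandas 2.3.3 and matplotlib 3.10.9.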

Additional observations from a re-analysis of the deposited data

How the results depend on the processing

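The median differences of the 39 members kept their sign under all 18 alternatives of each comparison, and with array medians they were -0.88 for imatinib against BCR/ABL, 0.39 for BCR/ABL against vector and -0.51 for imatinib against vector, or -0.61, 0.19 and -0.42 relative to all genes. That scaling split the unadjusted calls over all genes into 20.8% lower and 2.29% higher, 2.04% and 12.1%, and 8.72% and 6.50% in those comparisons. Leaving out 1 array gave medians of -0.56 to -0.50, 0.13 to 0.23 and -0.44 to -0.34. Adjusted calls of members for imatinib against BCR/ABL were 25 with array medians, 5 above the 30th percentile and 8 above the 50th, all lower, and 0 under the other 15 alternatives, including each array left out. Fewer probe sets are tested under the percentile filters, and the cause of the 25 was not tested beyond the shift of all genes. Adjusted calls for imatinib against vector were 4 with array medians (Lyar, Noc4l, Bysl and Bop1), 2 above the 30th and 2 above the 50th percentile, and 1 (Lyar) with a constant of 1 and 1 with a robust prior, all lower, and 0 with each array left out. For BCR/ABL against vector there were 0 under all alternatives. Unadjusted calls ranged from 23 to 39 (23 to 34 with 1 array left out) for imatinib against BCR/ABL and from 19 to 27 (19 to 23) for imatinib against vector. For BCR/ABL against vector they were 14 with array medians, 4 above the 50th percentile and 4 with no trend in the prior, and 0 to 7 with 1 array left out. The cause was not tested. Arrays with the same replicate number deviated from their group means with correlations of 0.15, 0.16 and -0.08, so the numbers were not taken as pairs. With the replicate number as a block, 0 members passed after adjustment in any comparison, 34, 5 and 27 passed unadjusted, and the medians were -0.53, 0.17 and -0.35. Leaving out probe sets that can match several transcripts, chosen after seeing the data, gave medians of -0.58, 0.17 and -0.38 over 37 genes. None of the 39 members lay under an intensity of 16 on any array.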
